A study of Mus musculus with 4 samples.

Results

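The osteoblast transcription factors are a group of nuclear proteins that direct mesenchymal cells into the bone-forming lineage. They were taken here as 9 listed mouse genes: Runx2, Sp7, Dlx3, Dlx5, Dlx6, Msx1, Msx2, Atf4 and Mef2c. Probe sets annotated to exactly 1 of these symbols stood for a gene, which gave 17 of 45037 probe sets and 8 of 18193 genes. Runx2 had no such probe set, so its expression was not analysed here. The genes were listed by name, with earlier results of these data known, to set lineage regulators beside the output of bone matrix.

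RNA was measured on Affymetrix arrays in cells sorted from the bone marrow of adult NOD/SCID mice (NOD.CB17-Prkdc scid/J, a strain that cannot form mature B and T cells). The mice are described as recipients. The sort kept cells with CD51, the integrin alpha v chain, and without CD45, CD31, Sca1 or lineage antigens of blood cells. The cells came from the trabecular bone area (2 arrays) or from the long bone area (2 arrays), and strain, recipient status and sort were common to both. The labels call the arrays biological replicates without naming the mice or any pooling, so every p-value measures only the spread between these 4 samples.

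Bone formation runs through a hierarchy of such factors. Runx2 commits mesenchymal cells to the lineage, Sp7 (osterix) acts after it and is needed for osteoblasts to form, and both bind promoters of matrix genes. The Dlx and Msx proteins are homeodomain factors that respond to bone morphogenetic proteins and bind related sites, with Dlx members mostly activating and Msx members mostly repressing. Atf4 is a stress-response factor that secures amino acid supply for collagen synthesis and is controlled largely at the level of translation, which an array does not read. Mef2c acts in osteocytes, and also in muscle, endothelium, myeloid and B cells.

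The promoter windows below show matches to short sequences that such factors are known to bind. They are of a member and of matrix genes whose values are given further on. Each runs from 250 bases before to 50 bases after a start site, from RefSeq on GRCm38.p6, written 5' to 3' on the strand of the gene. Capitals mark the letters TGTGGT (RUNX core) or TAATTG (Msx and Dlx core) or their reverse complements.
Mef2c, chr13:83503784-83504083, plus strand: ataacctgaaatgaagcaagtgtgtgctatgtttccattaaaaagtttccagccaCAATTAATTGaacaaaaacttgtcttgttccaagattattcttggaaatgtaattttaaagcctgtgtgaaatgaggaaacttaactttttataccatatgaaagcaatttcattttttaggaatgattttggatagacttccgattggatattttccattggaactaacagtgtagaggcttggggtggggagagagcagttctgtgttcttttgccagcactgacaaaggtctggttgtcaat
Ibsp, chr5:104299037-104299336, plus strand: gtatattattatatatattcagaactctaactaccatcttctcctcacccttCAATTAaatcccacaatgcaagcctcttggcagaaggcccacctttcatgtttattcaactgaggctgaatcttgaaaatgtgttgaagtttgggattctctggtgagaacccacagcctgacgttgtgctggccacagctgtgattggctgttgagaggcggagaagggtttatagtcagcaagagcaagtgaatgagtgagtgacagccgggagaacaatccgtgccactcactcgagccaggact
Sparc, chr11:55420031-55420330, minus strand: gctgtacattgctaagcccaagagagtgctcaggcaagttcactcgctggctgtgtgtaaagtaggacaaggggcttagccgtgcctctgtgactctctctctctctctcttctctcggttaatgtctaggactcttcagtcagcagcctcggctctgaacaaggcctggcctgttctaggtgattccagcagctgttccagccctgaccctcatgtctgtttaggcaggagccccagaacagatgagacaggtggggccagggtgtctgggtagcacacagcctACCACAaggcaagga
Dmp1, chr5:104202367-104202666, plus strand: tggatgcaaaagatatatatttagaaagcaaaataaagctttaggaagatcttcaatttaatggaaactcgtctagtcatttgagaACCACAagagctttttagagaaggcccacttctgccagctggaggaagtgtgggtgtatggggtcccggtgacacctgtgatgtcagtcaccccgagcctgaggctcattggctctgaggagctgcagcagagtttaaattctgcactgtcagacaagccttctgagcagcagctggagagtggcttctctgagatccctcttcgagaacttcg

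These windows were picked because they hold a match. TGTGGT was found on either strand in 6 of 19 windows of the bone matrix list (31.6%), among them Sparc and Dmp1, against 16.8% of all 32851 windows. The 19 windows cover 16 of the 22 listed genes. The 6 include Bglap and Spp1, whose expression was not measured here. TAATTG was in 3 of 19 matrix windows (15.8%), including Ibsp, against 8% of all. Among 7 windows of 5 members, Runx2 held 3 TGTGGT matches and 1 Mef2c window held 2 TAATTG matches that overlap each other. Sp7, Dlx3, Dlx5 and Dlx6 had no window. No window of a member held TGATGNAA, an element bound by Atf4 with C/EBP proteins, which 3.97% of all windows held. A match describes the letters and does not show a bound site.

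Each deposited value is a log2 expression value from which the probe set's own median over 4 arrays had been subtracted, so it carries a difference between arrays and no level. Long bone array 2 stood apart, where 2493 probe sets were 2-fold or more away from that median (383 to 848 on each of the others), and with the Gapdh 5' control at -1.82 and its 3' control at -0.67. The spiked hybridisation controls were lower on both trabecular arrays, by a median of 0.39 on the log2 scale. Levels could be read only in bands. A band follows the lowest of the 4 arrays, so a probe set read at 4 to 8 can pass 8 on other arrays. Of the osteoblast genes Col1a1, Col1a2, Sparc and Alpl each had a probe set read at a log2 level of 8 or above. Those of Ibsp and Omd were read at 4 to 8. For 1 Ibsp probe set, with values from -2.02 to 2.06, that band is too narrow to hold all 4 arrays. The bone matrix list had 12 of 37 probe sets at 8 or above (32.4%), against 31.7% of all. Myeloid markers had 6 of 13 there, among them Lyz2 and 1 of the 2 probe sets of Ptprc, the gene of CD45. In such sorted populations, fewer cells of a type and less RNA per cell cannot be told apart.

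As deposited, the means of the transcription factors lay close together in the 2 areas. Those of many bone matrix genes on the same arrays were at least 2-fold apart. Of the factors' 17 probe sets 14 were read at a log2 level of 4 to 8. There the median absolute difference of all probe sets was 0.19, against 0.31 at 8 or above. The centred values do not tell whether a factor was detected, so close means do not show that it was expressed equally. The 8 measured chondrocyte markers were lower in the trabecular area too, with a median difference of -3.18. No member passed the test: with limma, 0 of 8 had an adjusted p under 0.05, as had 0 of 18193 genes (0%). At an unadjusted p under 0.05 there was 1 member, Sp7, against 15.5% of all genes. Of the 8 members 7 had lower means in the trabecular area and 1, Atf4, a higher mean. The median difference, trabecular minus long bone, was -0.11 on the log2 scale, against 0.03 over all genes. Values did not overlap between the areas for 4 members, 3 of them lower (21.4% of all genes were) and 1 higher (29.9% of all genes). Of the 17 probe sets 0 passed the adjusted test (0% of all) and 2 had an unadjusted p under 0.05, 1 of Sp7 and 1 of Atf4 (16.3% of all probe sets). No overlap was seen for 6 that were lower (26.2% of all) and 2 that were higher (25.9% of all). On the deposited scale no member was 1.5-fold apart. The members' median absolute difference of 0.21 was close to the 0.20 of all genes. Each array was also scaled to reference genes, chosen as genes of steady expression. All 8 members were then lower, and the median of all genes was -0.41. Sp7 was at -0.82, Dlx5 at -0.80, Msx1 at -0.70 and Mef2c at -0.61, all beyond 1.5-fold. Scaled to the spiked controls, where the median of all genes was 0.43, Atf4 was beyond it at 0.76.

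**Figure D1:**
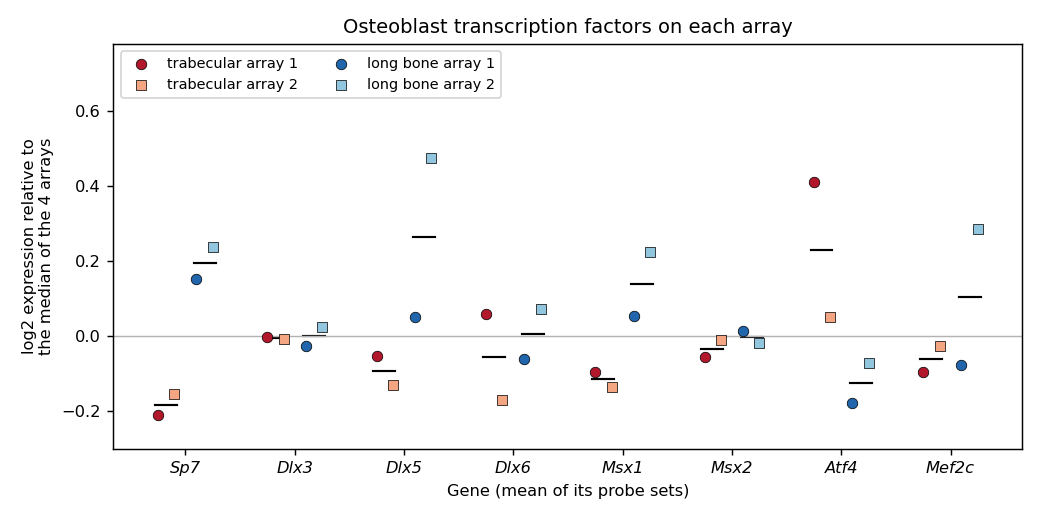
Log2 values of the 8 measured transcription factors, centred on their 4-array median, with 1 point per array, trabecular left of long bone, and a bar at each area's mean. Sp7, Dlx5 and Msx1 lie lower and Atf4 higher on both trabecular arrays, all within 0.5 of 0.

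Sp7, the zinc finger factor that osteoblasts need, had log2 values of -0.21 and -0.15 in the trabecular area, against 0.15 and 0.24 in the long bone area. Both trabecular values lay below both long bone values, and the arrays of each area were close together. The difference was -0.38 (SE 0.12, 95% interval -0.70 to -0.06, adjusted p = 0.291 with limma), a 1.30-fold lower level that ranked at percentile 7.80 of all genes. It was between -0.42 and -0.34 with any 1 array left out. When each array was scaled to its spiked hybridisation controls instead, the difference was 0.02. Scaled to the reference genes, it was -0.82.

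The Dlx genes lie in pairs in the genome, and Dlx5 and Dlx6 form one of them. Dlx5, an activator of Sp7 and of matrix genes, had values of -0.05 and -0.13 in the trabecular area, against 0.05 and 0.48 in the long bone area. The areas did not overlap, but long bone array 2 stood well above the other arrays. The difference was -0.36 (95% interval -0.85 to 0.14, adjusted p = 0.413 with limma), and it was -0.14 when long bone array 2 was left out and -0.57 when long bone array 1 was. Dlx6, its neighbour, had values of 0.06 and -0.17 in the trabecular area, against -0.06 and 0.07 in the long bone area. The areas overlapped, with a difference of -0.06 (interval -0.45 to 0.33).

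Dlx3, which acts in bone, skin and teeth, was the flattest member. Its mean values were -0.0025 and -0.0078 on the trabecular arrays, against -0.025 and 0.025 on the long bone arrays. Its difference of -0.0052 had an interval of -0.32 to 0.31. The 2 Dlx3 probe sets differed by 0.0077 and -0.018 between the areas. On the trabecular arrays 1 was at -0.089 and 0.104 and the other at 0.084 and -0.120. They ran opposite to each other and largely cancelled in the gene mean.

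Msx1, a homeodomain factor of early skeletal precursors, had values of -0.09 and -0.13 in the trabecular area, against 0.05 and 0.22 in the long bone area. The areas did not overlap. The difference was -0.25 (SE 0.13, interval -0.60 to 0.09, adjusted p = 0.408 with limma), and -0.17 without long bone array 2. Its probe sets differed in size: the one read at a log2 level of 8 or above was at -0.42, and the one read at 4 to 8 was at -0.09, both with no overlap. Msx2, which holds back terminal steps of the osteoblast programme, had values of -0.05 and -0.01 in the trabecular area, against 0.01 and -0.02 in the long bone area. These overlapped, and the difference was -0.03 (interval -0.34 to 0.28), with probe sets at 0.03 and -0.09.

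Mef2c had mean values of -0.09 and -0.03 in the trabecular area, against -0.08 and 0.29 in the long bone area. Only long bone array 2 stood away from the others, and the areas overlapped. The difference of -0.17 (interval -0.62 to 0.28) was 0.02 without that array. Of its 5 probe sets 4 were lower in the trabecular area and 1 higher, from -0.28 to 0.07, and 1 of the 4 had no overlap. Marker lists of other cells that express Mef2c were read on the same arrays. The 7 measured B cell markers had medians of -0.13 and 0.08 on the trabecular arrays, against -0.09 and 0.33 on the long bone arrays. On long bone array 2 the highest were Vpreb1, a surrogate light chain gene of early B cells, at 2.42 and Ebf1 at 1.66. The others there were Blnk at 1.03, Igll1 at 0.33, Cd79b at 0.29, Cd79a at 0.16 and Pax5 at 0.07. The medians of 9 skeletal muscle and 7 endothelial markers stayed within 0.10 of 0 on each array. Those of 10 myeloid markers were 0.04 and 0.02 in the trabecular area, against -0.08 and -0.11 in the long bone area. Single myeloid markers moved further: 7 had higher trabecular means and 3 lower. The 3 without overlap were all higher, Itgam at 1.68, Cd68 at 0.78 and Lyz2 at 0.22. The part of these cells in the Mef2c value was not tested.

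**Figure D2:**
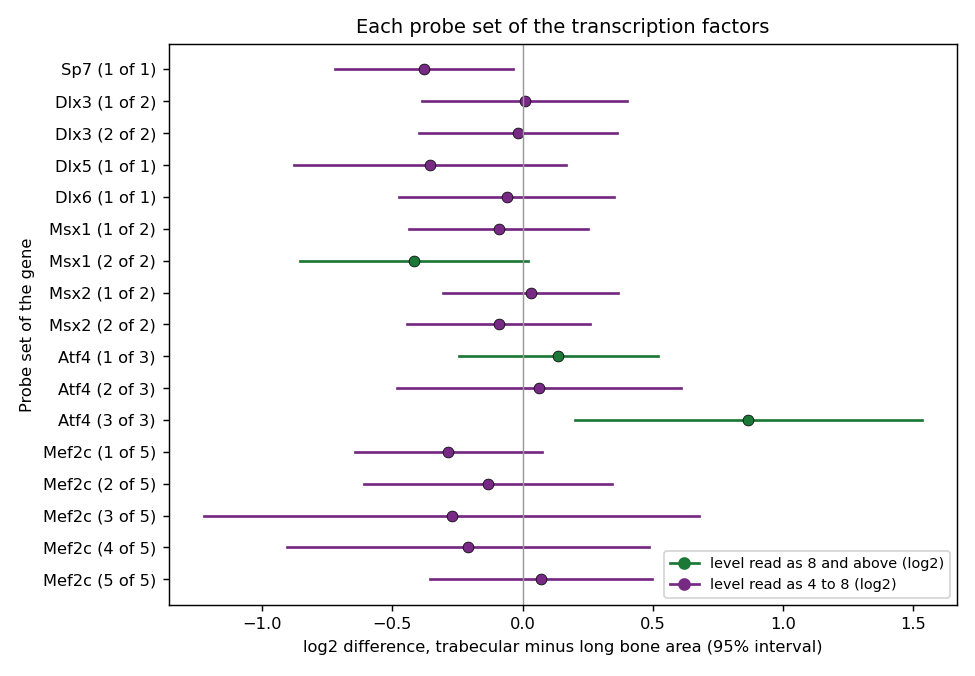
Log2 difference, trabecular minus long bone area, of each of the 17 probe sets with its 95% interval from limma, coloured by the level read from the number steps. The probe sets of a gene are numbered in order of their names. Of the 17, 1 probe set of Atf4 lies above 0 and that of Sp7 below 0 with their whole intervals.

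Atf4 went the other way from the rest. Its values were 0.41 and 0.05 in the trabecular area, against -0.18 and -0.07 in the long bone area. The areas did not overlap, and trabecular array 1 was the highest by far. The difference was 0.36 (SE 0.17, interval -0.10 to 0.81, adjusted p = 0.386 with limma), and 0.18 without trabecular array 1. Its 3 probe sets disagreed in size. One was at 0.87 (interval 0.20 to 1.53), with values of 0.87 and 0.27 in the trabecular area, against -0.27 and -0.33 in the long bone area. The other two were at 0.14 and 0.06. The 8 measured reference genes, chosen as genes of steady expression, had a median difference of 0.41. Scaled to them Atf4 was at -0.09, and scaled to the spiked controls it was at 0.76.

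The direction of single members depended on the scale. Scaling to the spiked controls moved the median of all genes to 0.43, and scaling to the reference genes moved it to -0.41. Taken relative to the median of all genes, the members' median was -0.14 as deposited, with 7 of 8 members below the median of all genes and Atf4 above it. Both scalings shift all genes of an array alike, so these relative values are the same under them by construction. They are not matched for level. In the band of 4 to 8, which held 14 of the members' 17 probe sets, the median was -0.09 for members and -0.06 for all. There 10 of the 14 were lower, as were 15440 of all 25855.

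The bone matrix list holds the collagens, mineral-binding proteins and enzymes that osteoblasts secrete or use to build bone. Of 22 listed genes 17 were measured. The trabecular mean was the lower one for all 17 (8266 of all 18193 genes), without overlap for 15 (21.4% of all genes). The median difference of the 17 was -1.37. Of these 9 were at least 2-fold lower with no overlap, where 2.63% of all genes were that far apart in either direction, and 0 passed the adjusted test. Bgn, a proteoglycan that binds collagen, was 6.07-fold lower (difference -2.60, interval -3.26 to -1.94). Col1a2, a chain of type I collagen, was at -2.46, and Sparc, a calcium-binding glycoprotein of bone, at -2.35. Ibsp, the bone sialoprotein gene, had values of -1.06 and -0.94 in the trabecular area, against 1.14 and 0.86 in the long bone area. The areas were far apart for Ibsp (interval of the difference -2.41 to -1.59), although its probe sets were at -3.65 and -0.35. Col1a1, the other chain of type I collagen, was at -1.75, and at -0.75 without trabecular array 1. Alpl, the phosphatase of mineralisation, was at -0.66, and at -0.30 without long bone array 2. Dmp1, a matrix gene of osteocytes, had values of -0.21 and -0.40 in the trabecular area, against 1.11 and 0.21 in the long bone area. Its difference of -0.96 was -0.51 without long bone array 1 and -0.09 without probe sets named _s_ or _x_. Mepe, a late matrix gene of osteocytes, was at -0.02. The 8 chondrocyte markers had a lower median than this list (-3.18, against -1.37) and none overlapped, although Sox9 among them was at -0.24. Their part in the matrix values was not tested.

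**Figure D3:**
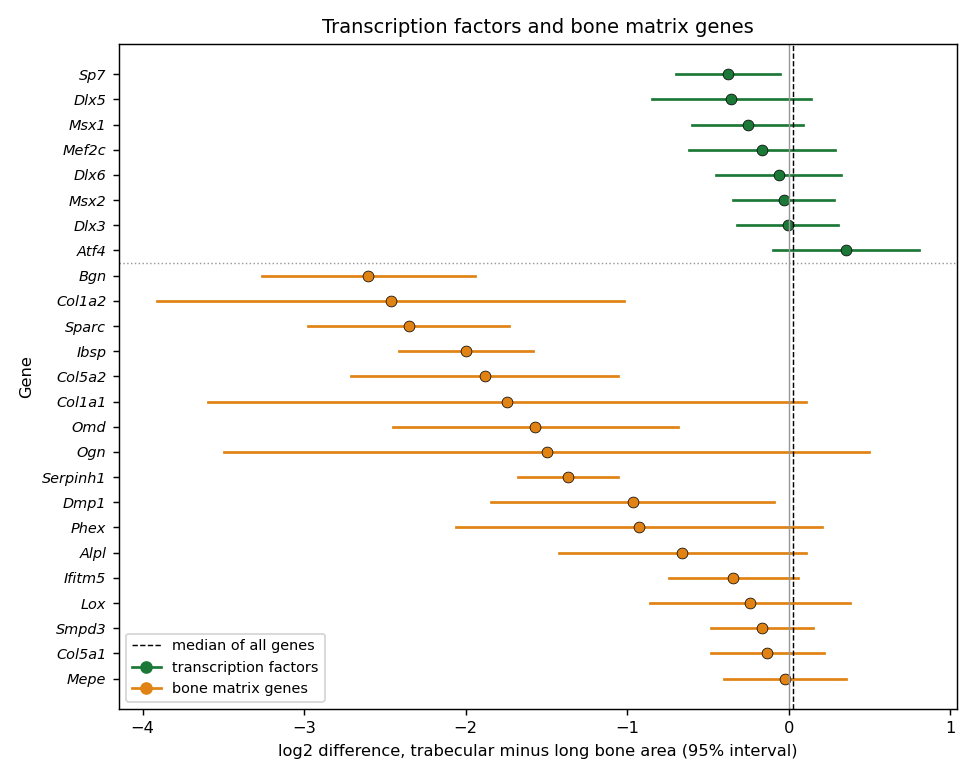
Log2 difference, trabecular minus long bone area, of the 8 transcription factors (above) and 17 bone matrix genes (below the dotted line), with 95% intervals from limma and the median of all genes as a dashed line. The factors lie between -0.38 and 0.36, and the matrix genes reach -2.60.

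Set side by side, 6 of the 17 matrix genes had intervals that lay wholly below the interval of every transcription factor. These were Bgn, Col1a2, Sparc, Ibsp, Col5a2 and Serpinh1. With any 1 array left out the matrix median stayed between -1.37 and -1.06, while that of the factors was between -0.23 and -0.02. The value nearest 0 for the factors was the one without long bone array 2. Scaling to the spiked controls left the matrix median at -0.96, with 12 of 17 genes lower. The difference between the lists was not tested.

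The lists were also read within bands of level. The bands come from the number steps of the deposited values and depend on the probes. Of the factors' 17 probe sets 14 were read at a log2 level of 4 to 8 and 3 at 8 or above, the 3 being 1 of Msx1 and 2 of Atf4. In the band of 4 to 8 the median difference was -0.09 over the 14 probe sets of factors, -0.56 over 23 of matrix genes and -0.06 over all 25855. In the band of 8 or above the 3 probe sets of factors lay between -0.42 and 0.87, and 12 of matrix genes had a median of -1.64, against 0.16 over all 14286. A band is wide and follows the lowest of the 4 arrays, so matrix probe sets read at 4 to 8 can pass 8 in the long bone area. Probe sets of factors and of matrix genes read in the same band therefore need not have like levels.

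Relatives of the factors did not share 1 direction. Of 13 measured paralogues trabecular means were lower for 4 and higher for 9 (median 0.07), and 0 passed the adjusted test. Dlx4 was the one lower with no overlap, at -0.44, with values of -0.06 and -0.24 in the trabecular area, against 0.06 and 0.51 in the long bone area. Without long bone array 2 it was at -0.21. Runx3, a Runt factor of immune and cartilage cells, was at 0.35 (interval 0.04 to 0.67), with trabecular values of 0.15 and 0.22, against -0.15 and -0.17 in the long bone area. Sp1 and Mef2b were at 0.41 and 0.32, and at 0.10 and 0.14 without long bone array 2. Runx1, the blood cell relative of Runx2, was at 0.03 and overlapped.

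Partners and regulators of the factors, 21 of 24 measured, had a median of 0.16, with 8 lower and 13 higher. None passed the adjusted test, and 3 of 21 had an unadjusted p under 0.05 (15.5% of all genes had), all lower in the trabecular area: Wwtr1, Zfp521 and Yap1. Wwtr1 (TAZ), a coactivator that binds Runx2, was at -0.72 (interval -1.04 to -0.39). Its values of -0.33 and -0.42 in the trabecular area lay well below the 0.31 and 0.38 of the long bone area, but the difference was -0.26 with the median of its 3 probe sets and -0.32 scaled to the spiked controls. Zfp521, a zinc finger protein that restrains Runx2, was at -0.51, and Yap1, the paralogue of Wwtr1, at -0.45. Scaled to the spiked controls they were at -0.11 and -0.04. Scaled to the reference genes Wwtr1, Zfp521 and Yap1 were at -1.16, -0.95 and -0.89. Snai2, a transcriptional repressor active in mesenchymal cells, was at -1.78, at -0.45 without long bone array 2 and at -0.92 without probe sets named _s_ or _x_. Trps1, a GATA-type factor of cartilage and bone, was at -0.87, at -0.35 without long bone array 1 and at -0.48 with the median of its probe sets. Hdac4 and Hdac5, deacetylases that hold back Runx2 and Mef2 factors, were at 0.59 and 0.50, and Maml1, a Notch coactivator, at 0.26. Without long bone array 2 these were at 0.23, 0.30 and 0.14. Cbfb, the partner subunit that Runx proteins need to bind DNA well, was at 0.19 and overlapped, and was between -0.33 and 0.71 with any 1 array left out.

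Genes that Atf4 is known to activate went both ways. Of 28 listed symbols 25 were measured. Trabecular means were higher for 17 and lower for 8, and the median difference was 0.14, against 0.03 over all genes and 0.41 over the reference genes. Values did not overlap for 10 that were higher and 3 that were lower (29.9% and 21.4% of all genes), and 0 passed the adjusted test. Ddit4, an inhibitor of mTORC1, was 2.46-fold higher, with values of 0.94 and 0.46 in the trabecular area, against -0.46 and -0.74 in the long bone area. The areas were well apart for Ddit4, with a difference of 1.30 (interval 0.72 to 1.89, adjusted p = 0.240 with limma). Slc3a2, a subunit of amino acid transporters, and Asns, asparagine synthetase, were at 0.94 and 0.93. The tRNA ligase genes Sars and Nars were at 0.58 and 0.57. Trib3, a pseudokinase that restrains Atf4, was at 0.66 with no overlap, while Ddit3 (CHOP), Chac1 and Atf3 overlapped, at -0.13, 0.14 and 0.58. Nupr1, a stress-induced chromatin protein, was at -2.54, and at -1.64 without long bone array 2. Vldlr was at -0.34 and Stc2 at -0.11. Scaled to the spiked controls the last 2 turned to 0.06 and 0.29.

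**Figure D4:**
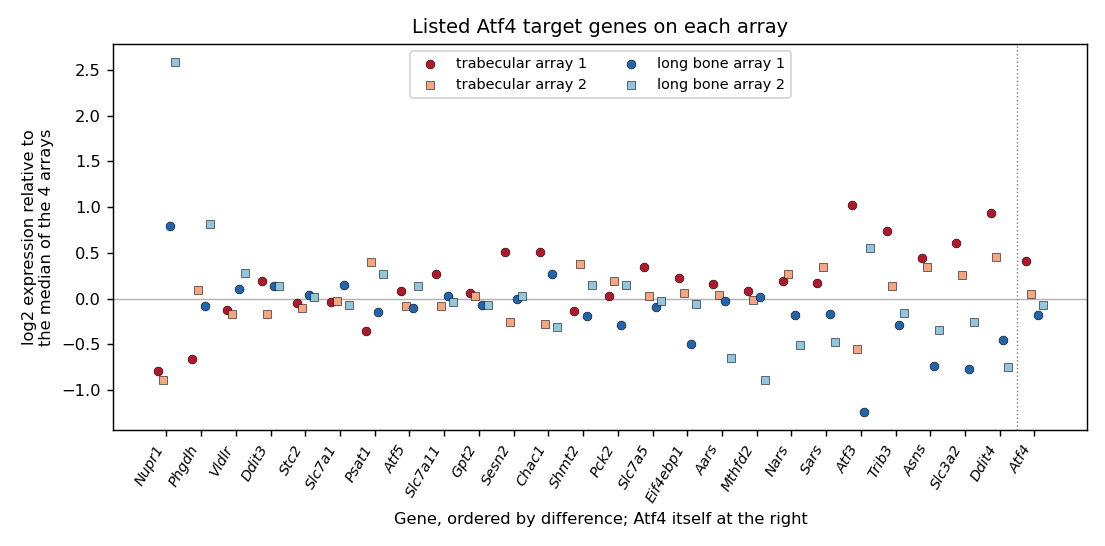
Log2 values of the 25 measured Atf4 target genes, centred on their 4-array median and ordered by the difference between the areas, with Atf4 at the right and 1 point per array. The red trabecular points lie above the blue long bone points for Asns, Slc3a2 and Ddit4, and below them for Nupr1.

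The pattern of Sp7 over the 4 arrays was compared with 136 other genes of the lists by the root mean square difference of log2 values. Vldlr, the VLDL receptor, was nearest at 0.055, followed by Msx1 at 0.077 and Kdr, a VEGF receptor, at 0.093. Over all genes 125 were as near as Vldlr and 353 as near as Msx1, so closeness over 4 arrays singles out no gene.

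Markers of other cells moved on the same arrays. The 8 chondrocyte markers had lower trabecular values throughout, none overlapping, and their list medians were -1.42 and -1.51 there, against 1.91 and 1.48 in the long bone area. The 7 reticular stroma markers had medians of 0.10 and -0.59 in the trabecular area, against -0.08 and 1.76 in the long bone area. Long bone array 2, the high one here, was also the highest array for Sp7, Dlx5, Msx1 and Mef2c. It was the highest by little for Dlx3 (0.025, against -0.0025 on trabecular array 1) and Dlx6 (0.072, against 0.059 there). That array also had the widest spread over all probe sets (SD 0.48, against 0.27 to 0.31 on the others). The share of all genes that were highest on it was not counted. The part of stroma in the values of the factors and matrix genes, and that of chondrocytes in the factors, was not tested. CD51 itself, read by 5 Itgav probe sets, was at -0.13 as a gene, with probe sets from -1.16 to 0.61.

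**Figure D5:**
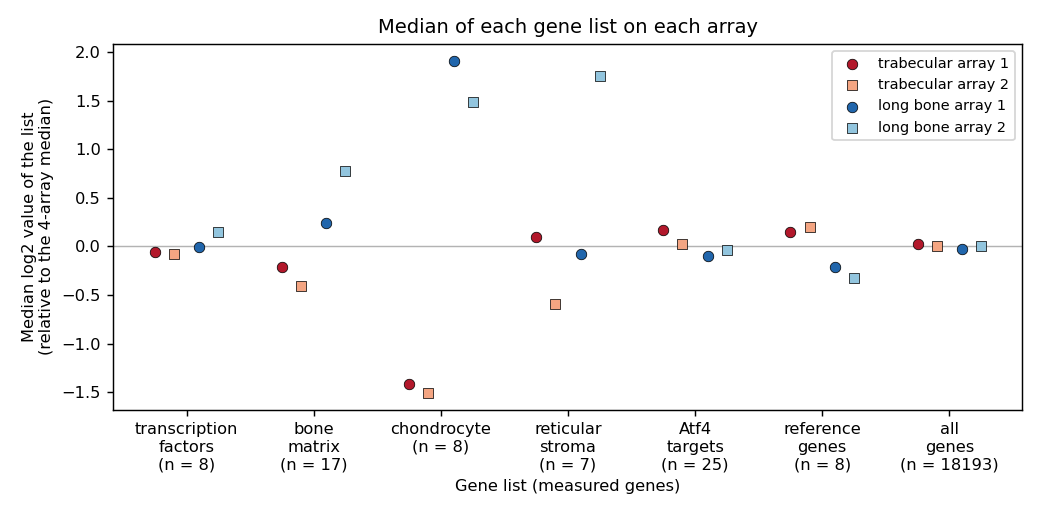
Median log2 value of each gene list on each array, relative to the 4-array median, with 1 point per array and the number of measured genes under each name. The factors lie between -0.08 and 0.15 on the 4 arrays, the bone matrix list between -0.41 and 0.78 and the chondrocyte list between -1.51 and 1.91.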

How the data were processed

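The deposited values are log2 expression. Per the submitters' processing notes they come from RMA, a method that corrects background, normalizes by quantiles and summarises probes by median polish, with a version not given in the sources used here. In the deposited table each probe set is centred on the median of its 4 arrays, so levels are lost. The log base is not stated and was taken as 2, which RMA gives. A human array is named in the series text, yet probe set names are those of a mouse array, whose GEO annotation was used.

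The table holds 45101 probe sets, and its 64 controls were not tested. Of the other 45037, 34945 had 1 gene, 932 several and 9160 none. A gene was the mean of the probe sets annotated to it alone. The test was limma's moderated fit (version 3.58.1, R version 4.3.3, 2 residual degrees of freedom), with Benjamini-Hochberg adjustment over all probe sets or all genes at 0.05. Intervals are 95% intervals of that fit. Before centring, log2 levels of 8 and above, 4 to 8 and 2 to 4 have different 32-bit number steps, from which bands were read. The fit and the bands were tested on simulated data. For the bands these held only probe sets whose 4 arrays lay within 1 band, so reading across a band edge was not tested. The number of arrays, 2 per area, limits precision. Genes named are the members, 5 set matrix genes, the 3 largest differences per list and direction without overlap, and the 3 nearest Sp7; the others named were picked after their values were seen. Members and lists were chosen with earlier results of these data known. The expression of Bglap and Runx2 was not analysed here.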

Additional observations from a re-analysis of the deposited data

How the results depend on the processing

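With 2 arrays per area only large differences could pass, and a p that missed the threshold does not show that values did not differ. No probe set or gene passed at an adjusted p of 0.05 as deposited (7325 probe sets and 2811 genes at an unadjusted p under 0.05), after quantile normalization, with robust eBayes, with the median of a gene's probe sets, without probe sets named _s_ or _x_, over bright probe sets, or with the replicate number as a block (replicate block), where 2450 genes had an unadjusted p under 0.05. The quantile normalization was run on the centred values, so it evened the spread of deviations between arrays and did not renormalize levels. Differences between rep 1 and rep 2 correlated at -0.18 between the areas. The crossed pairing, added after seeing the data, also gave 0 genes and 0 probe sets. Ordinary t statistics called 1 probe set and 1 gene. With 1 array left out the count of genes was 0 to 1603 (1053 higher and 550 lower without long bone array 1, 1 without long bone array 2), and 0 of the members were among them. Each such fit leaves 1 area with 1 array, which is assumed to vary like the other area.

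Scaling to the hybridisation controls called 2 probe sets and 2857 genes (2775 higher, 82 lower), among them Atf4 (adjusted p = 0.047, over alternatives from 0.047 to 0.821). The median was then 0.29 for members and -0.96 for matrix genes. Sp7 was at 0.024, Dlx3 at 0.40, Dlx5 at 0.046, Dlx6 at 0.34, Msx1 at 0.15, Msx2 at 0.37, Mef2c at 0.24, Vldlr at 0.064, Stc2 at 0.29, Mepe at 0.38 and Kdr at 0.096. Probe sets that turned with them were at 0.31 for Msx1, 0.024 for Sp7, 0.12, 0.27, 0.13 and 0.19 for Mef2c, 0.31 for Msx2, 0.046 for Dlx5, 0.38 for Dlx3 and 0.34 for Dlx6. Scaling to reference genes called 584 probe sets and 125 genes (0 higher, 125 lower), with medians of -0.55 and -1.81. Atf4 was then at -0.086, Sp1 at -0.035, Runx3 at -0.088, Mef2b at -0.12, Runx1 at -0.41, Cbfb at -0.25 and Maml1 at -0.18, with probe sets of Dlx3 at -0.43, Msx2 at -0.41, Atf4 at -0.30 and -0.38 and Mef2c at -0.37. Both scalings shift all genes of an array alike by construction; the cause of the lower spiked controls was not tested.

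Over bright probe sets alone the medians were 0.043 (2 members left) and -1.75 (9 matrix genes left). With 1 array left out the medians were -0.23 to -0.022 for members and -1.37 to -1.06 for matrix genes. The range was -0.030 to 0.020 for Dlx3, -0.18 to 0.053 for Dlx6 and its probe set, -0.35 to 0.015 for Mef2c, -0.14 to 0.097 for Mepe, -0.042 to 0.11 for Runx1 and -0.33 to 0.71 for Cbfb. Mepe was at 0.0057 after quantile normalization, and Runx1 at -0.023 with the median of its probe sets. Probe sets that turned ranged from -0.089 to 0.10 and -0.12 to 0.084 for Dlx3, from -0.13 to 0.25 for Atf4, and from -0.29 to 0.022, -0.67 to 0.13, -0.52 to 0.10 and -0.033 to 0.17 for Mef2c.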
